A study of Mus musculus with 7 samples.

Results

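The promoters of mouse embryonic stem cells (ESCs) were compared for a pair of histone marks, H3K4me3 and H3K27ac, with 1 ChIP-seq library of each from F123 cells. These ESCs come from an F1 cross of Mus musculus castaneus with the S129/SvJae strain. All 22350 protein-coding gene starts of GENCODE M1 on chromosomes 1 to 19 and X were taken as promoters, out of 37252 annotated gene starts of every type on these chromosomes. The 2 libraries are part of a series of 7, made to study a distal enhancer of Sox2. A J1 H3K27ac library, from another mouse ESC line, and the RNA-seq library of wild type F123 cells were used beside them. The 3 RNA-seq libraries of enhancer deletion clones were not used here. The F123 cells were unedited, and per the study's methods their last passages were on gelatin with no feeder layer. With 1 library per mark there was no replicate, so that no difference between the marks carries a test, and every interval covers counting error only. Both alleles of the hybrid cells were counted together.

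H3K4me3 is trimethylation of lysine 4 of histone H3. It is written by SET1 and MLL complexes and sits at the starts of genes, above all where the DNA is rich in CpG. H3K27ac is acetylation of lysine 27 of the same histone by p300 and CBP, and it is found at active promoters and also at active enhancers. Lysine 27 can instead carry methyl groups set by Polycomb, and in ESCs many silent developmental genes hold Polycomb marks together with H3K4me3.

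The sequences just upstream of 5 gene starts show the range of promoters in which the marks were read. They are the 200 bases before the gene start in the mouse genome mm9, 5′ to 3′ on the strand of the gene, with each CG in capitals, since CpG content was high at most promoters with H3K4me3 and low at most without. None overlapped an annotated exon. Sox2 (chr3:34548727-34548926, plus strand) and Pou5f1 (chr17:35642782-35642981, plus strand) carried both marks, Pptc7 (chr5:122734174-122734373, plus strand) was the highest H3K4me3 promoter with H3K27ac below the genome mean, Gm16253 (chr3:96380707-96380906, plus strand) was the highest H3K27ac promoter that was not marked by H3K4me3, and Alb (chr5:90889715-90889914, plus strand), the serum albumin gene, had neither mark.
Sox2: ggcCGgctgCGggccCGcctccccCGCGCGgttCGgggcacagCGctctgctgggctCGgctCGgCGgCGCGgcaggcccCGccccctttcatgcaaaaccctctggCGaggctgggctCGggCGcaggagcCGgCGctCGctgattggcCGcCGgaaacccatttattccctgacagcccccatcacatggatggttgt
Pou5f1: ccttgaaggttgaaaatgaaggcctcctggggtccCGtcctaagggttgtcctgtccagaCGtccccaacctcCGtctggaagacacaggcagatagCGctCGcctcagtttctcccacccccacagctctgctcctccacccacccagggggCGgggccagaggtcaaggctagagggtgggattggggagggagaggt
Pptc7: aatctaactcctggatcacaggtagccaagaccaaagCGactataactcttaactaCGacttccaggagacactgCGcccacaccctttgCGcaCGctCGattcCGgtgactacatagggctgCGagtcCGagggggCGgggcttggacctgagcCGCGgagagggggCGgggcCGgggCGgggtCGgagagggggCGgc
Gm16253: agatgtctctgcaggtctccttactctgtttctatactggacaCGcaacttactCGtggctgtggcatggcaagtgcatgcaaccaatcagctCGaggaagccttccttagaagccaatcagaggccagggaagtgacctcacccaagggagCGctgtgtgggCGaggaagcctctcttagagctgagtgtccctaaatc
Alb: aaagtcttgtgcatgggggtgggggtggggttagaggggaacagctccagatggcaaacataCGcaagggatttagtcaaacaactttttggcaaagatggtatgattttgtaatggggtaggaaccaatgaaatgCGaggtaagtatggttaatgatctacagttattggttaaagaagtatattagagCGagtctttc
These stretches held 22 CG in Sox2, 6 in Pou5f1, 17 in Pptc7, 5 in Gm16253 and 3 in Alb. Of all 22350 stretches of this length and position, 90.4% held at least 1 CG and the median was 7.0.

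Signal at a promoter was the number of distinct alignments with their 5′ end within 2 kb on either side of the gene start, given as fold over what the autosomal mean of the same library predicts for a window of 4 kb. That mean was 11.2 alignments in the H3K4me3 library and 2.50 in the H3K27ac library. The H3K4me3 library held 7108751 distinct alignments from 9007794 reads, and the H3K27ac library held 1576875 from 8047321 reads. Of the distinct alignments, 82.4% were seen in a single read for H3K4me3 and 20.5% for H3K27ac. A promoter at 5-fold or more was called marked, which took at least 57 alignments of H3K4me3 and 13 of H3K27ac. A window without any alignment allows up to 0.268-fold for H3K4me3 and up to 1.20-fold for H3K27ac. No input library was used, so that a fold holds differences in mappability and copy number as well as in the mark.

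The promoters carried the marks of ESCs. Of 8 ESC marker genes, 6 were marked by both, and RNA of all 8 lay between 91.2 and 468 FPKM (alignments on the exons of a gene, scaled to exon length and library size) in wild type F123. The exceptions were Dppa5a, with H3K27ac at 33.6-fold and H3K4me3 at 2.76-fold, and Esrrb, whose annotated gene start had 5 alignments of H3K4me3 and none of H3K27ac. Esrrb, a nuclear receptor of the pluripotency network, reached 17.6-fold H3K4me3 at another annotated start, 109000 bp away. None of 8 fibroblast markers, which would stand for feeder cells, and none of 5 trophoblast markers reached 5-fold in either mark, and the highest of these 8 in H3K4me3 was Col1a2, at 4.10-fold with 2.0-fold H3K27ac. Of 6 promoters of primitive endoderm markers, Gata6 was marked by both (7.76-fold and 6.41-fold) and Sox7 by H3K27ac only (6.41-fold), and RNA of these genes lay between 4.8 and 43.6 FPKM. Longer lists of these cell types, given further on, held some marked members, with 3 of 19 fibroblast and 1 of 10 trophoblast promoters at 5-fold H3K4me3.

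H3K4me3 marked more promoters than H3K27ac, and H3K27ac fell for the most part inside the set that H3K4me3 marked. H3K4me3 was at 5-fold or more at 10084 promoters (45.1%) and H3K27ac at 6103 (27.3%). Both marks were present at 5554 promoters (24.9%), H3K4me3 only at 4530 (20.3%), H3K27ac only at 549 (2.46%) and neither at 11717 (52.4%). H3K27ac thus marked 55.1% of the H3K4me3 promoters (exact binomial interval 54.1 to 56.1), and H3K4me3 marked 91.0% of the H3K27ac promoters (90.3 to 91.7). The call was the same for both marks at 77.3% of promoters. When the 6103 highest promoters by H3K4me3 were set against the 6103 marked by H3K27ac, so that both sets were of equal size, 4394 (72.0%) were shared.

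Many H3K27ac calls lay near the limit of what that library could resolve. Just inside the threshold, 276 promoters had 13 alignments of H3K27ac (5.21-fold), and just outside it 304 had 12 (4.81-fold). For H3K4me3 the same edge held 77 promoters with 57 alignments (5.08-fold) and 76 with 56 (4.99-fold). The Poisson interval of the count spanned 5-fold at 4942 promoters for H3K27ac and at 2552 for H3K4me3. Thinned to the depth of the H3K27ac library, H3K4me3 still marked 9979 promoters, of which H3K27ac marked 55.2%. Of the 4530 promoters with H3K4me3 only, the H3K27ac interval was wholly below 5-fold at 2261 and spanned it at 2269. It was wholly above 1-fold at 1866 (41.2%), so that H3K27ac in this class was often low rather than at the genome mean, while 842 (18.6%) were below 1-fold and 142 had no alignment.

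**Figure D1:**
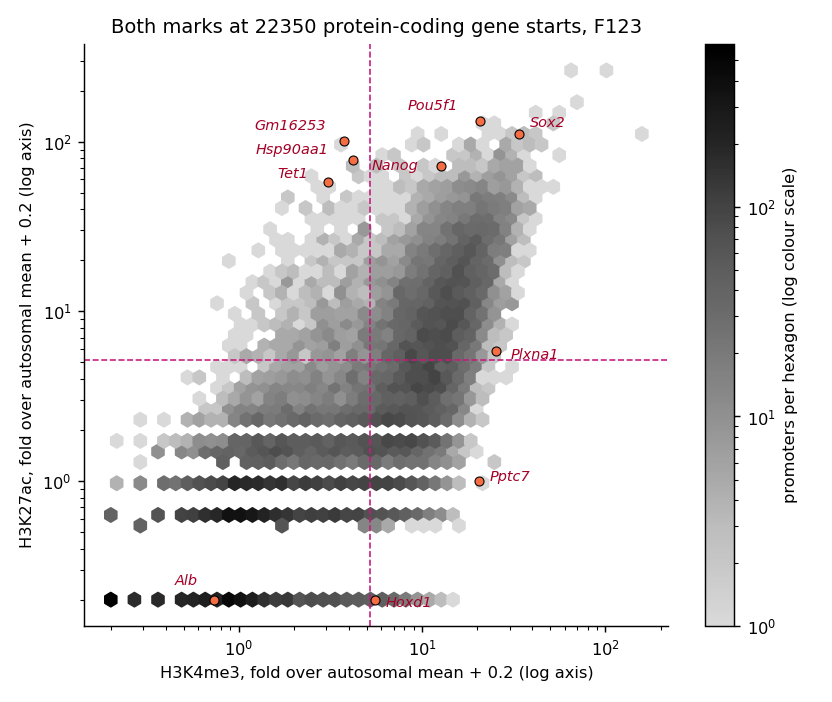
H3K4me3 (x axis) against H3K27ac (y axis) at 22350 protein-coding gene starts, both as fold over the autosomal mean plus 0.2 on log axes, with 1 library per mark. Hexagons are shaded by the number of promoters, dashed lines stand at 5-fold and orange points are named genes. Promoters of low H3K4me3 and high H3K27ac, such as Gm16253, Hsp90aa1 and Tet1, lie upper left, and Pptc7 lies far right at 0.801-fold H3K27ac.

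Across promoters the 2 marks rose together, with lower coefficients within classes cut on the same folds. Spearman's rho between the folds was 0.81 over all 22350 promoters and 0.62 over the 10084 marked by H3K4me3. It was 0.45 over the 5554 marked by both and 0.51 over the 11717 with neither. Pearson's r of log2(fold + 0.2) was 0.79, 0.63, 0.47 and 0.52. A cut on the folds narrows their range, so that the lower values are no measure of looser agreement. These are correlations over promoters of 2 libraries, which share mappability and CpG content and, for 17.4% of promoters, a window that overlaps that of another protein-coding gene. H3K27ac in F123 and in J1 gave a rho of 0.88 over all promoters and 0.87 over those marked by H3K4me3, a cut made on neither of these libraries.

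The share of promoters with H3K27ac depended steeply on the H3K4me3 level. Below 1-fold H3K4me3, 19 of 5726 promoters (0.332%) were marked by H3K27ac. The share was 3.50% from 1- to 2-fold, 12.1% from 2- to 5-fold and 30.8% from 5- to 10-fold. It then rose to 61.2% from 10- to 15-fold, 86.2% from 15- to 20-fold and 97.5% from 20- to 30-fold, and all 114 promoters at 30-fold or more were marked. The median H3K27ac fold in these intervals went from 0.400 through 2.80 at 5- to 10-fold H3K4me3 to 46.9 at 30-fold or more. Among promoters with both marks, quartiles of H3K27ac were 7.61, 12 and 21.2-fold, and those of H3K4me3 were 10.1, 13.6 and 17.9-fold.

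**Figure D2:**
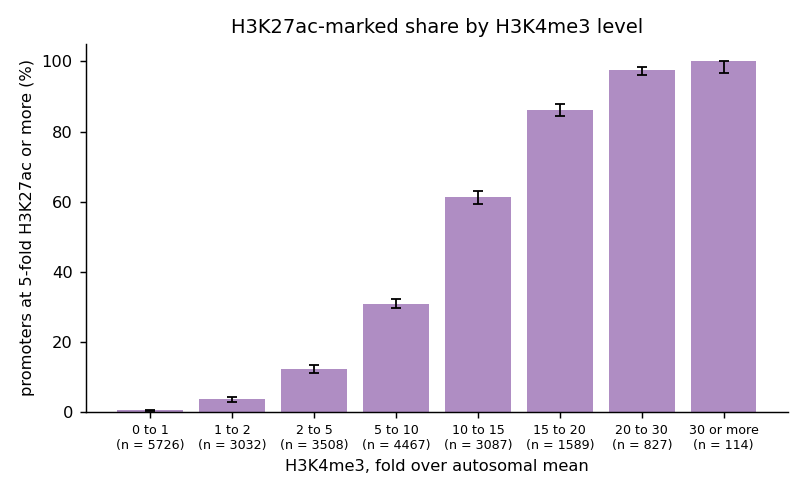
Percent of promoters at 5-fold H3K27ac or more (y axis) in 8 intervals of H3K4me3 fold (x axis), with the number of promoters under each bar and exact 95% binomial intervals as error bars. The share goes from 0.332% below 1-fold H3K4me3 to all 114 promoters at 30-fold or more.

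The classes differed in CpG content. The median number of CpG in the 1 kb centred on the gene start was 73.0 at promoters with both marks, 66.5 with H3K4me3 only, 24.0 with H3K27ac only and 14.0 with neither. At least 40 CpG were found at 92.2% of promoters with both marks and 90.8% of those with H3K4me3 only, against 27.5% of those with H3K27ac only and 16.7% of those with neither. The share marked by H3K4me3 went from 0.805% below 10 CpG to 20.3% at 20 to 40 CpG and 95% at 100 or more, and the share marked by H3K27ac from 1.72% to 15.9% and 61.1%. Below 10 CpG, H3K27ac marked more promoters than H3K4me3 (75 against 35), and so it did from 10 to 20 CpG (241 against 156). In every interval from 20 CpG upward it marked fewer. An excess of H3K27ac calls was also seen away from gene starts. Of autosomal 4 kb windows without any gene start, 2.18% were at 5-fold H3K27ac or more and 0.373% at 5-fold H3K4me3 or more. The 1.72% of promoters below 10 CpG with H3K27ac was thus no higher than the share of such windows. H3K27ac without H3K4me3 was most frequent at 20 to 40 CpG, with 201 of 3251 promoters (6.18%).

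Both marks peaked just inside the gene, and H3K27ac extended further to either side. Profiles were averaged in bins of 100 bp over promoters with no other protein-coding start within 4 kb. At 3799 such promoters with both marks, H3K4me3 was highest in the bin at 200 bp after the start, at 60.3-fold, and H3K27ac in the same bin at 59.7-fold. Upstream, the highest bin of H3K27ac was at 400 bp before the start, at 25.5-fold, and that of H3K4me3 at 100 bp before the start, at 18.8-fold. This offset depended on how ends were placed, since with 5′ ends shifted toward fragment centres both highest upstream bins were at 300 bp before the start, at 27.8-fold and 16.8-fold. The highest downstream bins then lay at 100 bp after the start, at 67.9-fold for H3K27ac and 65.2-fold for H3K4me3. The 2 kb downstream held 3.60 times the H3K4me3 of the 2 kb upstream, and 1.91 times the H3K27ac. Of all signal within 5 kb, 71.4% of H3K4me3 and 60.7% of H3K27ac lay within 1 kb of the start. At 4 to 5 kb from the start H3K27ac was still at 3.38-fold and H3K4me3 at 1.64-fold. In the J1 library, which no class was defined from, H3K27ac at the same promoters was 1.19 times as high downstream as upstream and 48.0% of it lay within 1 kb.

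Promoters with H3K27ac only had a broader profile, and in F123, whose counts also define the class, a more even one. At 442 of them H3K27ac peaked at 26.9-fold, with a downstream to upstream ratio of 1.24, and 38.6% of its signal within 5 kb lay within 1 kb. At 4 to 5 kb from the start it was still at 6.0-fold. H3K4me3 at these promoters had a small peak of 8.91-fold at 200 bp after the start. At 3518 promoters with H3K4me3 only, H3K27ac had a peak in the same bin, at 9.26-fold, beside 45.1-fold for H3K4me3.

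**Figure D3:**
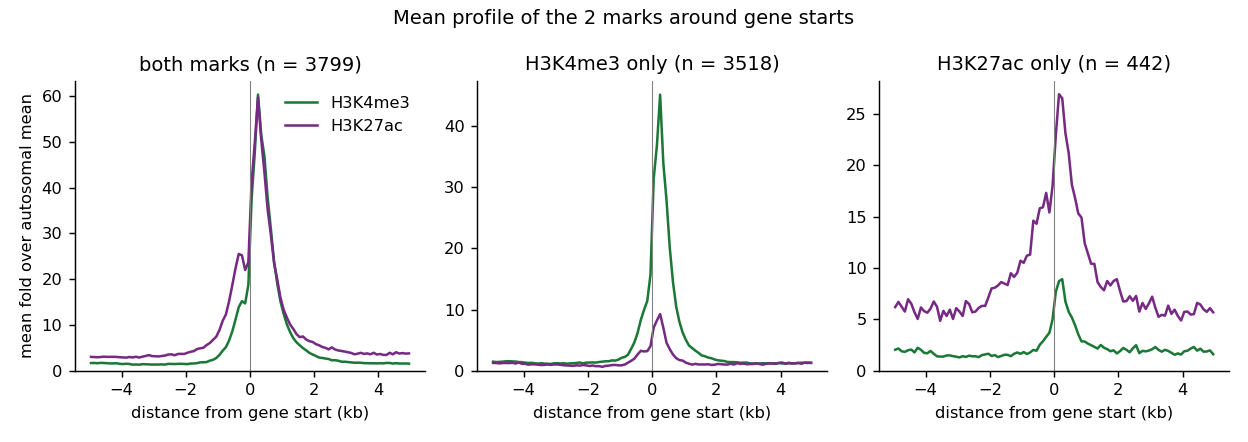
Mean H3K4me3 (green) and H3K27ac (purple) as fold over the autosomal mean (y axis, own scale in each panel) by distance from the gene start in kb (x axis, transcription to the right), in 100 bp bins, for 3 classes of promoter. Both marks peak just downstream of the start where both are present, and H3K27ac stays at about 6.0-fold at 4 to 5 kb where it is the only mark.

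Outside gene starts, windows high in H3K27ac were more frequent than windows high in H3K4me3. Of 10615 autosomal 4 kb windows at 5-fold or more in H3K4me3, 8428 (79.4%) held an annotated gene start. For H3K27ac this was 5505 of 18301 windows (30.1%), and for J1 H3K27ac 4349 of 14508 (30%). Promoter windows of protein-coding genes, which cover 3.23% of autosomal bases, took 19.6% of the distinct H3K4me3 alignments and 17.2% of those of H3K27ac.

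RNA of wild type F123 was highest for genes with both marks. Median FPKM was 19.7 for promoters with both marks, 6.67 with H3K4me3 only, 4.47 with H3K27ac only and 0.0645 with neither. At least 1 FPKM was reached by 96.2%, 81.6%, 78.0% and 23.2% of these genes. At like levels of H3K4me3, genes whose promoter was also marked by H3K27ac had more RNA. From 5- to 10-fold H3K4me3 the median was 12.7 FPKM with H3K27ac (n = 1366) and 4.65 without (n = 3077). From 10- to 15-fold it was 18.7 (n = 1877) and 11.7 (n = 1190), and from 15- to 20-fold it was 24.0 (n = 1363) and 14.6 (n = 217). The quartile ranges overlapped in every interval, and H3K4me3 itself was slightly higher in the group with H3K27ac, at a median of 8.12-fold against 7.13-fold from 5- to 10-fold and 12.5-fold against 11.8-fold from 10- to 15-fold. Rank correlations with FPKM were 0.73 for H3K4me3 and 0.70 for H3K27ac over 21964 genes, and 0.45 and 0.48 over the 10024 marked by H3K4me3. Over the 5519 marked by both they were 0.28 and 0.27, and J1 H3K27ac gave 0.71, 0.44 and 0.21 over the same sets. This is a description over genes of 4 libraries.

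Transcribed genes without either mark at the annotated start were frequent. Of 12045 genes at 1 FPKM or more, 8986 (74.6%) were marked by H3K4me3 at the start of the gene record, 9385 (77.9%) at any annotated transcript start, and 5724 (47.5%) by H3K27ac at the start of the gene record. Of 2647 genes at 1 FPKM or more with neither mark, 340 (12.8%) had another annotated start at 5-fold H3K4me3 or more, as Esrrb did.

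**Figure D4:**
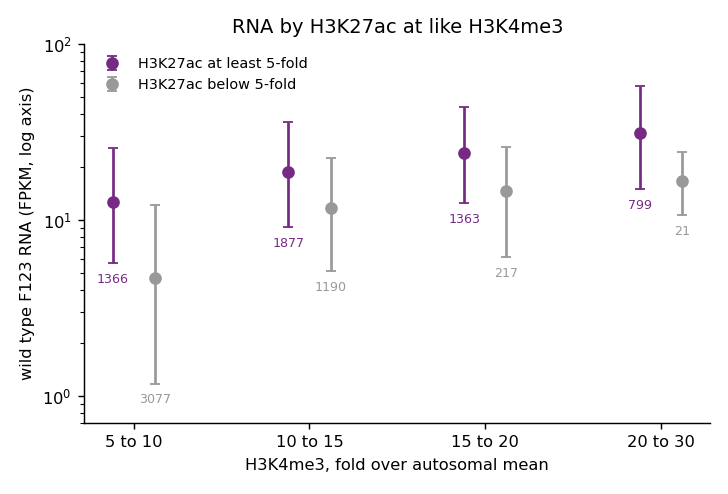
Wild type F123 RNA in FPKM (y axis, log scale) for genes whose promoters have like H3K4me3 (x axis, fold over the autosomal mean), split by H3K27ac at 5-fold or more (purple) and below (grey). Points are medians over genes, bars run from the lower to the upper quartile and numbers give the genes, so that bars show the spread between genes and not between replicates. The median is higher with H3K27ac in each of the 4 intervals, from 12.7 against 4.65 FPKM to 31.0 against 16.6 FPKM, and the bars overlap.

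The ratio of the marks, as log2 of H3K27ac fold over H3K4me3 fold with 0.5 alignments added to each count, had a median of -0.70 over all promoters and -0.05 over those with both marks. Over all promoters the exact interval of the ratio lay wholly above equality at 2023 (9.05%) and wholly below it at 6897 (30.9%). These shares are the background for the gene lists, whose members are counted with the same rule. The ratio also differed by H3K4me3 level, with medians over all promoters of -1.24 at 2- to 5-fold, -0.90 at 10- to 15-fold and -0.41 at 15- to 20-fold. Over all promoters the median was 3.92-fold for H3K4me3, 1.60-fold for H3K27ac, 41.0 for the CpG count and 1.89 FPKM for RNA. The same ratio with J1 H3K27ac in place of F123 H3K27ac is given beside the F123 value for most lists, as the J1 ratio. The libraries differed over all promoters too. At 15- to 20-fold H3K4me3 the F123 library gave a median H3K27ac of 12.8-fold, against 7.0-fold from the J1 library. At 2- to 5-fold H3K4me3 the order was reversed, with 1.20-fold from F123 against 1.71-fold from J1. A gap between the F123 and J1 ratios of a list is thus not by itself a trait of its genes.

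Genes of the pluripotency network stood at the H3K27ac end. Of 21 promoters of pluripotency factors, 19 (90.5%, against 27.3% of all promoters) were marked by H3K27ac and 15 (71.4%, against 45.1%) by H3K4me3, with medians of 36-fold and 12.1-fold. The ratio had a median of 1.54 (J1 ratio 1.0), and its interval lay above equality at 17 and below it at none. Sox2, a core transcription factor of ESCs, had 377 alignments of H3K4me3 (33.6-fold, 30.3 to 37.2) and 278 of H3K27ac (111-fold, 98.6 to 125). Pou5f1, which encodes Oct4, had 229 (20.4-fold) and 330 (132-fold). Nanog, the third core factor, had 139 (12.4-fold) and 179 (71.7-fold). Oct4 and Nanog thus had less H3K4me3 than Sox2, while Nanog alone had less H3K27ac, by intervals that did not overlap.

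Tet1, an enzyme that oxidizes 5-methylcytosine, had the highest ratio of the list, 4.33 (3.79 to 4.95). It had 32 alignments of H3K4me3 (2.85-fold) and 145 of H3K27ac (58.1-fold), and no annotated Tet1 start was above 3.66-fold H3K4me3. Dppa5a, Tcl1 and Dppa3 were also marked by H3K27ac only, at 33.6-fold, 17.6-fold and 6.01-fold. Tcl1, Dppa3 and Dppa5a are genes of early embryos and ESCs. Klf2 and Klf5, Krüppel-like factors of the network, had the marks at near equal fold. Klf2 had 27-fold H3K4me3 and 23.6-fold H3K27ac, and Klf5 had 25.8-fold and 29.6-fold. The median CpG count of the list was 31.0, against 73.0 for all promoters with both marks. J1 H3K27ac was at 5-fold or more at 17 of the 21 (21.7% of all promoters), with 53.1-fold at Pou5f1, 44.4-fold at Sox2 and 35.5-fold at Tet1.

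Genes of the signalling pathways that act in ESCs had a median ratio of 0.57 (-0.07 with the J1 library in place of F123 H3K27ac) over 20 promoters, of which 15 (75%, against 45.1% of all promoters) were marked by H3K4me3 and 14 (70%, against 27.3%) by H3K27ac. Nodal, a TGF-beta family ligand, had the highest ratio, with 16.9-fold H3K4me3 and 79.3-fold H3K27ac. Targets and inhibitors of FGF signalling were high in both, namely Spry2 (31.3-fold and 78.5-fold) and Dusp6 (23.9-fold and 76.1-fold). Id2 and Id3, targets of BMP signalling, were marked by H3K4me3 only, at 5.26-fold and 5.08-fold, with H3K27ac at 2.0-fold and 1.60-fold. Id1 had 10.4-fold H3K4me3 and 16.8-fold H3K27ac. The lowest ratio, -2.27, was at a start annotated for Fgfr1, an FGF receptor, with 10.6-fold H3K4me3 and 2.0-fold H3K27ac.

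Replication-dependent histone genes had, like the pluripotency factors, a median ratio above 1 in F123. Of 67 promoters, 54 (80.6%, against 27.3% of all promoters) were marked by H3K27ac and 17 (25.4%, against 45.1%) by H3K4me3. H3K27ac only was found at 37 of the 67, against 2.46% of all promoters (549 of 22350). The median ratio was 1.42 (1.16 with J1 H3K27ac), with the interval above equality at 48 and below it at none. Their CpG count was not low, with a median of 62.0. Hist1h3c, an H3 gene on chromosome 13, had the highest ratio, with 32 alignments of H3K4me3 (2.85-fold) and 62 of H3K27ac (24.8-fold). Hist1h4c had the lowest, with 2.41-fold and 0.801-fold. No member reached 10-fold H3K4me3, and the highest, Hist4h4, was at 9.99-fold with 45.3-fold H3K27ac. In J1 cells, 54 of 67 were at 5-fold H3K27ac or more, against 21.7% of all promoters.

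The histone genes are not independent of each other. Of the 67, 58 had another protein-coding start within 4 kb, and joined at that distance they form 33 loci. Joined only among themselves, those marked by H3K27ac form 28 loci and those marked by H3K4me3 form 11. The 37 with H3K27ac only form 20, and all 549 promoters of that class form 507. The counts of marked histone loci are not parts of the 33, since an unmarked start between marked ones can split a locus. Copies of these genes are near identical, and how the authors placed reads with several matches is not given in the sources used here. Hist1h2bq had no alignment of either mark in its window, and Hist1h2ap and Hist1h2br had 2 and 1 alignments of H3K4me3 and none of H3K27ac. At 3-fold in place of 5-fold, 56 (83.6%, against 35.9% of all promoters) were marked by H3K27ac and 39 (58.2%, against 54.5%) by H3K4me3, so that the low share of H3K4me3 was not seen at this threshold. Replication-dependent histone mRNAs lack poly(A) tails and the RNA was captured on oligo(dT), so their FPKM, at a median of 2.82, is no measure of their transcription.

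Housekeeping genes carried H3K4me3 almost without exception and differed in H3K27ac. Ribosomal protein genes had H3K4me3 at 76 and H3K27ac at 73 of 77 promoters, with a median ratio of -0.18 that was -1.10 with J1 H3K27ac. Respiratory chain genes encoded in the nucleus had H3K4me3 at 69 and H3K27ac at 45 of 71, with a median ratio of -0.82 (J1 ratio -1.41). Proteasome subunit genes had H3K4me3 at 31 and H3K27ac at 22 of 32, with a median ratio of -0.87 (J1 ratio -1.76). For each list both shares lay above the 45.1% and 27.3% of all promoters. The near equality of the marks at ribosomal protein genes thus held for the F123 library and not for J1. Among all promoters at 15- to 20-fold H3K4me3, median H3K27ac was likewise lower with the J1 library (7.0-fold against 12.8-fold). Whether the drop is specific to ribosomal protein genes was not tested. The F123 ratio interval lay below equality at 25 of 77, 39 of 71 and 21 of 32 of these promoters, and above it at 10, 3 and 1. Over all promoters these shares were 30.9% and 9.05%, and 51.1% of promoters marked by either mark lay below. Median H3K4me3 was 19.4-fold, 11.8-fold and 13.5-fold in the 3 lists. The median ratio of all promoters was -0.90 at 10- to 15-fold H3K4me3 and -0.41 at 15- to 20-fold. Median FPKM was 129 for ribosomal proteins, 59.1 for the respiratory chain and 62.0 for the proteasome, all well above the 19.7 of promoters with both marks.

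Within these groups single genes lay far apart. Rps21 had 20-fold H3K4me3 and 44.4-fold H3K27ac (36.6 to 53.5), while Rplp0, at a like 18.1-fold H3K4me3, had 11 alignments of H3K27ac (4.40-fold, 2.20 to 7.88). The RNA of Rplp0 was 305 FPKM and that of Rps21 77.0 FPKM. Psmd6, a lid subunit of the proteasome, had 149 alignments of H3K4me3 (13.3-fold) and 3 of H3K27ac (1.20-fold), with 43.1 FPKM. Ndufv1, of complex I, had 145 (12.9-fold) and 3 (1.20-fold), with 48.7 FPKM. Atp5j, of the ATP synthase, had the highest ratio of the respiratory chain, with 27.6-fold H3K4me3 and 77.7-fold H3K27ac. Psma6 had the highest ratio of the proteasome, with 1.43-fold and 13.2-fold, and another annotated Psma6 start 14553 bp away had 14.1-fold H3K4me3. J1 H3K27ac was at 1.30-fold at Psmd6, 2.77-fold at Ndufv1 and 3.18-fold at Rplp0, so that these transcribed genes were below 5-fold in both ESC lines. Over all promoters the J1 median was 4.40-fold at 10- to 15-fold H3K4me3 and 7.0-fold at 15- to 20-fold. Over promoters with H3K4me3 only it was 2.36-fold, below the values of Ndufv1 and Rplp0.

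Developmental genes with little RNA had a median ratio below that of all promoters, and in F123 also below that of promoters of like H3K4me3. Of 75 promoters of developmental transcription factors, 23 (30.7%, against 45.1% of all promoters) were marked by H3K4me3 and 2 (2.67%, against 27.3%) by H3K27ac, namely Gata6 and Sox7, both at 6.41-fold. The median H3K4me3 was 3.48-fold, the median H3K27ac 0.801-fold and the median ratio -1.89 (J1 ratio -1.27). All promoters at 2- to 5-fold H3K4me3 had a median F123 ratio of -1.24. The interval lay below equality at 46 (30.9% of all promoters) and above it at none (9.05% of all promoters). Their median RNA was 0.178 FPKM at a median CpG count of 65.0. Foxa1, an endoderm factor, had 66 alignments of H3K4me3 (5.89-fold) and none of H3K27ac. Isl1 and Pax2, which act in motor neurons and in kidney, had 6.24-fold and 5.89-fold H3K4me3 with 1 alignment of H3K27ac each. Eomes had 9.10-fold with 3 alignments. Foxd3, which ESCs express, had 10.9-fold H3K4me3, 4.81-fold H3K27ac and 9.99 FPKM.

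Hox genes, which pattern the body axis, were alike. Of 40 promoters, 8 (20%) were marked by H3K4me3 and 2 (5.0%) by H3K27ac, both below the shares of all promoters. The median H3K4me3 was 3.03-fold and the median ratio -1.66 (J1 ratio -0.91), against an F123 ratio of -1.24 for all promoters at 2- to 5-fold H3K4me3. The interval lay below equality at 21, against 30.9% of all promoters. Hoxa5 had 122 alignments of H3K4me3 (10.9-fold) and 6 of H3K27ac (2.40-fold), and Hoxd1 had 60 (5.35-fold) and none. Hoxc13 was marked by both, with H3K4me3 at 11.3-fold, H3K27ac at 6.41-fold and RNA at 2.72 FPKM. The shortfall in H3K4me3 of both groups depended on the threshold. At 3-fold, 21 of 40 Hox promoters (52.5%) and 44 of 75 developmental promoters (58.7%) were marked, against 54.5% of all promoters, and at 10-fold 2 and 1, against 25.1%. For H3K27ac at 3-fold the counts were 2 and 5, against 35.9% of all promoters. No Hox promoter and 1 of the 75 reached 5-fold in J1 H3K27ac, against 21.7% of all promoters.

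The genes that write and erase these marks were themselves marked. Of 26 promoters of writers, erasers and readers, 21 carried both marks (24.9% of all promoters did), with a median ratio of 0.14 in F123 and -0.66 with J1 H3K27ac in its place. Brd2, a reader of acetylated histones, had 22.2-fold H3K4me3 and 115-fold H3K27ac. Ep300, which encodes p300, had 26.0-fold and 44.9-fold, and Crebbp, which encodes CBP, 18-fold and 10.4-fold. Hdac3, a deacetylase gene on chromosome 18, had 12.8-fold H3K4me3 and 2.0-fold H3K27ac. The ends of the list lay at starts low in H3K4me3, namely Brd3, with 1.96-fold and 15.2-fold, and Hdac8, on chromosome X, with 2.14-fold H3K4me3 and no alignment of H3K27ac. Another Brd3 start, 32481 bp away, was marked by H3K4me3.

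Of 25 promoters of Polycomb genes, 24 (96%, against 45.1% of all promoters) were marked by H3K4me3 and 18 (72%, against 27.3%) by H3K27ac, with a median ratio of 0.28 in F123 and -0.62 with J1 H3K27ac. The core subunits of PRC2 had both marks, with 24.0-fold and 34.0-fold at Suz12, 19.9-fold and 49.7-fold at Eed, and 19.2-fold and 40.8-fold at Ezh2. Phc1, of PRC1, had the highest ratio with 16.3-fold and 103-fold. Cbx8 and Cbx2, which encode chromodomain subunits of PRC1 on chromosome 11, had H3K4me3 only. Cbx8 had 82 alignments of H3K4me3 (7.31-fold) and 2 of H3K27ac (0.801-fold), and Cbx2 had 103 (9.19-fold) and 11 (4.40-fold). Their RNA was 0.211 and 6.88 FPKM. Cbx7 had both marks, at 17.2-fold and 16.8-fold, with 40.7 FPKM.

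**Figure D5:**
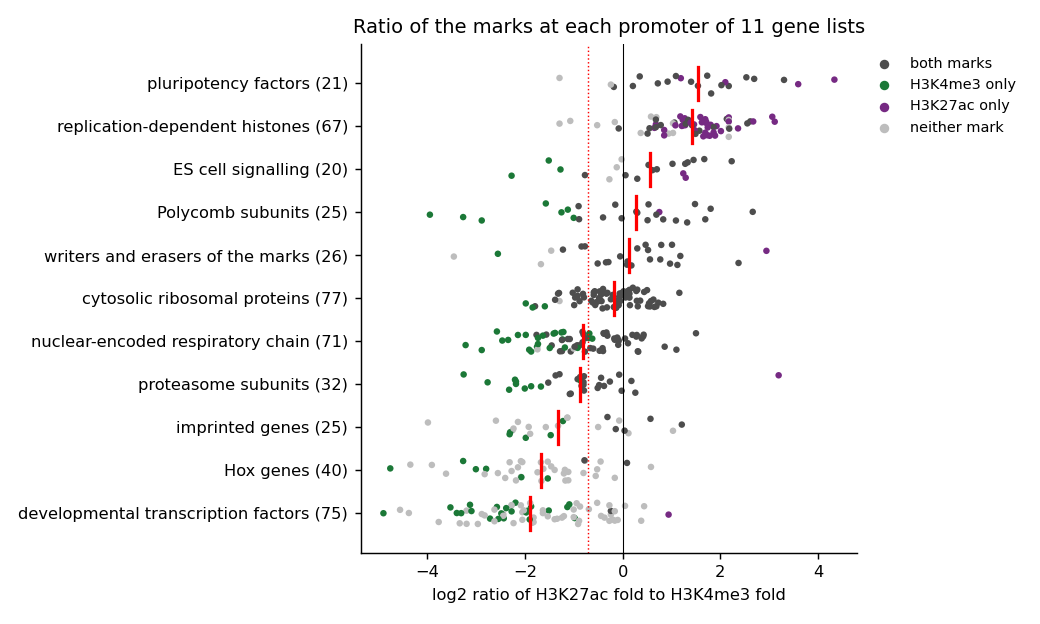
Ratio of H3K27ac fold to H3K4me3 fold on the log2 scale (x axis) at each promoter of 11 gene lists (rows, with the number of promoters), 1 point per promoter coloured by class. Red bars are the list medians, from 1.54 for pluripotency factors to -1.89 for developmental transcription factors, the dotted red line is the median of all promoters (-0.70), and points of promoters with few alignments depend on the 0.5 added to each count.

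Germline genes had RNA while few of their promoters reached 5-fold in either mark. Of 28 promoters, 5 (17.9%, against 45.1% of all promoters) were marked by H3K4me3 and 1 (3.57%, against 27.3%) by H3K27ac, yet 26 had at least 1 FPKM and the median was 13.1 FPKM. The median ratio was -1.11 (J1 ratio -1.25) at a median H3K4me3 of 2.68-fold. This was near the F123 ratio of -1.24 of all promoters at 2- to 5-fold H3K4me3. At 3-fold H3K4me3 marked 12 (42.9%, against 54.5%) and H3K27ac 4 (14.3%, against 35.9%), and at 10-fold H3K4me3 marked none. Dazl, an RNA-binding protein of germ cells, had 81 alignments of H3K4me3 (7.22-fold) and 9 of H3K27ac (3.60-fold) at 74.5 FPKM. Ddx4 had 25 (2.23-fold) and 1 (0.400-fold) at 14.1 FPKM, and Mael, of the piRNA pathway, 21 (1.87-fold) and 1 (0.400-fold) at 18 FPKM. Stra8, which acts at entry into meiosis, was the member with both marks, at 9.01-fold and 15.2-fold.

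Imprinted genes had 10 of 25 promoters (40%) marked by H3K4me3 and 5 (20%) by H3K27ac, against 45.1% and 27.3% of all promoters. Their median ratio was -1.32 (J1 ratio -1.17) at a median H3K4me3 of 4.37-fold, near the F123 ratio of -1.24 of all promoters at 2- to 5-fold. At 3-fold H3K4me3 marked 18 (72%, against 54.5%) and at 10-fold 3 (12%, against 25.1%). Impact, on chromosome 18, had the highest ratio with 14.3-fold and 32.8-fold, and Magel2 the lowest with 3.12-fold and no H3K27ac. Peg10 and Sgce, whose starts share a window, had 8.92-fold and 8.83-fold H3K4me3 and 1.60-fold H3K27ac. Of genes of other lineages, H3K4me3 and H3K27ac marked 0 and 0 of 40 promoters of differentiated tissues, 3 and 2 of 19 fibroblast genes, 1 and 0 of 10 trophoblast promoters, with a median ratio of -1.97 (J1 ratio -0.83), and 3 and 3 of 10 primitive endoderm promoters, a share near that of all promoters for H3K27ac. Eomes was the trophoblast gene, and Gata6, Lama1, Col4a1 and Sox7 were the primitive endoderm genes with a mark. The marked fibroblast genes were Vim, Fn1 and Twist1, of which Vim and Fn1 are also expressed in wild type F123 (85.1 and 194 FPKM). Chemosensory and hair genes were bare, with no H3K4me3 call and 1 H3K27ac call each among 1113 olfactory receptors, 328 vomeronasal receptors and 46 keratin-associated proteins. The highest of these calls was Krtap5-5, with 10 alignments of H3K4me3 (0.892-fold) and 34 of H3K27ac (13.6-fold), at 4.8-fold in J1.

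The promoters with the most H3K4me3 and least H3K27ac belonged to genes with CpG-rich starts, which most promoters with both marks had too. At least 40 CpG were found at 92.2% of promoters with both marks and 90.8% with H3K4me3 only. Pptc7, a mitochondrial protein phosphatase gene, had 227 alignments of H3K4me3 (20.2-fold, 17.7 to 23.1) and 2 of H3K27ac (0.801-fold), with 95 CpG and 14.8 FPKM. Taf3, a TFIID subunit that binds H3K4me3, had 176 (15.7-fold) and 1 (0.400-fold). The shared start of Lyar and Zbtb49 and the start of Rab12 each had 172 (15.3-fold) and 2 (0.801-fold). They were followed by Siah2, Irf2, Jak1, the shared start of Recql and Golt1b, Mxd1 and Cdc16, at 14.2- to 13.6-fold H3K4me3. Cdc16, a subunit of the anaphase-promoting complex, had 153 alignments of H3K4me3 and none of H3K27ac, at 46.2 FPKM. All of these had at least 56 CpG, and their J1 H3K27ac was between 0.977-fold at Mxd1 and 3.09-fold at Taf3. Of all promoters with H3K4me3 only, 289 of 4530 (6.38%) were at 5-fold or more in J1, against 4018 of 5554 (72.3%) with both marks.

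The promoters with H3K27ac and little H3K4me3 formed the smallest class, with 549 promoters or 507 loci when starts within 4 kb are joined. Gm16253, a gene model named without a known function, had 40 alignments of H3K4me3 (3.57-fold, 2.55 to 4.86) and 252 of H3K27ac (101-fold, 88.8 to 114), with 23 CpG and 1.41 FPKM. Hsp90aa1, the inducible HSP90 chaperone, had 45 (4.01-fold) and 195 (78.1-fold) at 417 FPKM, and another annotated start, 7056 bp away, had 20.5-fold H3K4me3. Itga6, an integrin that binds laminin, had 45 (4.01-fold) and 193 (77.3-fold), and another start 41362 bp away had 16.0-fold. The pair Btbd19 and Tctex1d4, Gm17497, Pole4, Gjb5, Tet1, Tmem39a and Lrrc2 completed the 10 highest when a shared window is counted once, with H3K27ac from 70.5-fold to 50.1-fold. All had 23 CpG or fewer. Other annotated starts of Btbd19 (4401 bp away), Tmem39a (5491 bp) and Pole4 (52847 bp) had 11.7-fold, 12.4-fold and 7.94-fold H3K4me3. No annotated start of Gm16253, Tctex1d4, Gm17497, Gjb5, Tet1 or Lrrc2 reached 5-fold. Gjb5, a gap junction gene, was just under the threshold at 4.82-fold H3K4me3.

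Of the 549 promoters with H3K27ac only, 63 (11.5%) belonged to a gene with another annotated start at 5-fold H3K4me3 or more. An H3K4me3-marked start of another protein-coding gene lay within 10 kb of 95 (17.3%), and starts of other gene types were not searched. The other 405 (73.8%) had neither. At promoters with neither mark these shares were 3.70% and 5.68%. The H3K4me3 interval was wholly below 5-fold at 360 and spanned it at 189, and it was wholly above 1-fold at 472, so that H3K4me3 was in most cases present at a low level. J1 H3K27ac was at 5-fold or more at 379 (69.0%), a share near that of promoters with both marks and far from the 157 of 11717 (1.34%) of promoters with neither mark.

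Among promoters with both marks the ratio ran from -2.12 to 3.79. The highest were Zfp532 and Rnf125 on chromosome 18, Cpsf4l, the pair Ly6g6e and Ly6g6d, and Sema4b, with 5.26- to 6.78-fold H3K4me3 and 65.3- to 85.3-fold H3K27ac. Zfp532 had 69 alignments of H3K4me3 and 213 of H3K27ac. Among the lowest were Plxna1, a semaphorin receptor, with 282 (25.1-fold) and 14 (5.61-fold), 1110034A24Rik, Tnpo3 and Cramp1l, with 21.2- to 30.6-fold H3K4me3 and 5.21- to 7.61-fold H3K27ac. When these 5554 promoters were ordered by the ratio and split into 5 parts of near equal size, median H3K4me3 was 15.1-fold in the lowest part and 12.8-fold in the highest and median H3K27ac 6.81-fold and 31.2-fold, values that set the order themselves. J1 H3K27ac, which did not, went from 4.40-fold to 16.0-fold and RNA from 17.9 to 25.6 FPKM.

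By H3K27ac the highest windows were those of the gene models Gm10801 (263-fold), Gm10800 (255-fold), Gm10717 (165-fold) and Gm10715 (147-fold), and by H3K4me3 that of Sfi1 (158-fold). The 8 windows with at least 40-fold H3K4me3, at least 100-fold H3K27ac and fewer than 40 CpG were, together with that of Sfi1, left out of the profiles, a choice made after their values were seen. These 9 windows were at 40.8- to 158-fold H3K4me3, 111- to 263-fold H3K27ac and 35.8- to 77.4-fold in J1, and they lie on chromosomes 2, 9 and 11. The rule cuts through a stretch of chromosome 9, where Gm11167 (35.5-fold and 96.1-fold) and Gm10106 (32.6-fold and 88.9-fold) were just below it. The part of mapping to repeated sequence in these values was not tested. Their range of H3K27ac also holds genes with known products. Pcbp1, an RNA-binding protein gene, had 494 alignments of H3K4me3 (44.1-fold) and 359 of H3K27ac (144-fold), and Pou5f1 (132-fold) and Brd2 (115-fold) lay in it too.

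The X chromosome had fewer marked promoters. H3K4me3 marked 152 of 932 promoters on X (16.3%) and 9932 of 21418 on autosomes (46.4%), and H3K27ac marked 120 (12.9%) and 5983 (27.9%). Among genes at 1 FPKM or more the shares were 33.9% and 76.1% for H3K4me3 and 26.9% and 48.3% for H3K27ac. The density of alignments over the whole X chromosome was 0.359 of the autosomal mean for H3K4me3 and 0.310 for H3K27ac, and folds were not scaled for this. Copy number and mark cannot be told apart here.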

How the data were processed

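H3K4me3 and H3K27ac were measured by ChIP-seq in F123 cells, with 1 library each. Per the labels, Bowtie aligned the ChIP libraries and Novoalign the RNA library, in versions not given in the sources used here. The label and the study's methods name different antibodies for H3K4me3. The authors deposited alignments on mm9 as lines of 36 bp, each with a score, a whole number that was read here as the count of reads behind a distinct alignment, so that each line was counted once. No input library was used.

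Starts were the 5′ ends of GENCODE M1 gene records of protein-coding genes, and 17 on Y and 13 on the mitochondrial genome were left out. Folds divide alignments within 2 kb on either side by the autosomal mean of the library. Intervals are exact at 95% (Poisson for counts, Clopper-Pearson for shares and for the ratio of both counts), and cover counting error only. A count of 0 was bounded by 3 counts. With 1 library per mark no test was made. FPKM is sense-strand distinct RNA alignments on exonic bases of a single gene, for genes with at least 200 such bases, over 24489577 alignments on genes. Starts within 4 kb of each other share alignments.

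The members and the 19 gene lists were chosen with earlier results of these data known. The rule for named genes took the 5 highest windows of each mark, the 10 with most H3K4me3 below 1-fold H3K27ac, the 10 with most H3K27ac below 5-fold H3K4me3, the 5 highest and 5 lowest ratios among promoters with both marks, the ends of each list, and Sox2, Pou5f1 and Nanog. The ends of lists that are nearly without alignments and a few other genes that the rule took are not reported here, and other list members were named after their values were seen. The count of ratios above or below equality was tested on simulated data. Python 3.11.15, numpy 2.4.6, pandas 2.3.3 and scipy 1.17.1 were used. Thresholds, windows, starts, units of counting, the H3K27ac library, depth and the added count were varied.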

Additional observations from a re-analysis of the deposited data

Results flagged for a closer look

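Some starts on the Y chromosome, which no comparison used, held more than the 3 alignments that a count of 0 allows. That bound is below the autosomal mean of 11.2 alignments of H3K4me3 per window. In the H3K4me3 library there were 29 alignments at Ddx3y, 29 at Uty, 19 at Eif2s3y, 7 at Kdm5d, 6 at Usp9y and 6 at Gm3395, and in the H3K27ac library there were 7 at Uty. The highest of these, at Ddx3y and Uty, were 2.59-fold over the autosomal mean in H3K4me3. Kdm5d (0.624-fold), Usp9y and Gm3395 (0.535-fold each) lay below that mean. None of the 17 Y starts reached 5-fold in either mark.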

How the results depend on the processing

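No paired analysis was possible because each mark had 1 library, and for the same reason no replicate could be left out. With a threshold of 10-fold, H3K4me3 marked 5617 promoters, H3K27ac 3637, and 50.3% of the former carried the latter, against 61.8% at 3-fold. With 5 kb on either side the counts were 5637 and 3958, the share 52.5%, and 997 promoters had H3K27ac only. With 1 kb the share was 60.9%, without promoters that have another start within 4 kb 51.9%, with the mean of windows without gene starts as the unit 57.4%, and with J1 H3K27ac 42.7%. With the 6103 highest promoters by H3K4me3, an alternative chosen after seeing the data, the share was 72.0% and 1709 had H3K27ac only. Over promoters with at least 10 alignments the rank correlation was 0.74. With J1 H3K27ac the median ratio changed sign for ESC signalling (-0.07), writers and erasers (-0.66), Polycomb subunits (-0.62) and vomeronasal receptors (-0.46, from 0.04, with few alignments). Among all promoters at 10- to 15-fold H3K4me3, the J1 library gave a median H3K27ac of 4.40-fold, against 6.41-fold from F123. Whether the changes of sign are specific to these lists was not tested, nor was their cause.

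Of 38 median ratios under other settings, 30 kept their sign and value within the limits set, 4 moved and 4 changed sign, and of 114 counts of marked list members 86 stayed within 1.5 times and 28 moved. Counting reads in place of distinct alignments, thinning H3K4me3 to the depth of H3K27ac, taking the transcript start with most H3K4me3 and, chosen after seeing the data, leaving out the 9 windows or the X chromosome left the counts over all promoters, the share and the correlation within the limits set for them. The profiles were recomputed only with ends shifted toward fragment centres, also chosen after seeing the data. Their downstream to upstream ratios stayed within 10%, while the highest bins at promoters with both marks moved, upstream and downstream. The H3K27ac library sets the resolution, since a promoter at its threshold holds 13 alignments.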
